A study of Homo sapiens with 20 samples.

Results

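The 9 genes described here encode the enzymes that build purine nucleotides from small precursors and turn the first purine, IMP, into AMP and GMP: PPAT, GART, PFAS, PAICS, ADSL, ATIC, IMPDH1, IMPDH2 and GMPS. They were chosen by name, as 9 of 19593 genes, and each gene was represented by the row of its 3′ transcript end that held the most reads over all 20 libraries. The cells were MM1.S, an established multiple myeloma line labelled as wild type. They received 10 nM dCBP-30, a degrader of the coactivators CBP and p300, or its vehicle DMSO for 2, 6 or 24 h, with 3 libraries for each treatment and time. During the last hour 4-thiouridine (4sU), a uridine analogue that is built into new RNA and read as C in place of T after alkylation, marked the RNA made in that hour, and 2 further libraries had no 4sU. A read with such a conversion is called a T>C read, and total reads hold new and older RNA together.

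De novo purine synthesis assembles the purine ring step by step on a phosphoribosyl pyrophosphate (PRPP) backbone and ends at IMP. From IMP the path divides: IMP dehydrogenase and GMP synthetase lead to GMP, and adenylosuccinate synthetase and lyase lead to AMP. Proliferating lymphoid cells draw heavily on this path, and inhibitors of IMP dehydrogenase are used to restrain lymphocytes. Several of these genes are known targets of the transcription factor MYC, which binds the E-box CACGTG together with MAX.

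All 9 genes passed the filter on low counts in both measures. Levels are given in RPM, a gene's reads scaled to library size (total reads and TMM factor), and are compared between groups of one gene only. In such bulk RNA, fewer cells and less RNA per cell cannot be told apart. A gene was called when edgeR's quasi-likelihood test gave an adjusted p under 0.05 over all genes and the fold change exceeded 2. Nothing in the sources used here says that libraries of a group came from separate cultures, so p-values measure the spread between these libraries. The plasma cell markers SDC1, XBP1 and MZB1 were present in all 18 labelled libraries, while the plasma cell marker FCRL5 had no read in 8. The T cell marker CD3D and the epithelial marker EPCAM had no read in any of them. The T cell marker CD3E (2.08 to 15.7 RPM of total reads) and the B cell marker CR2 (5.33 to 16.4 RPM) had reads in all 18. The summed total reads of 10 plasma cell markers were between 5830 and 6147 RPM under DMSO and between 620 and 808 RPM under dCBP-30 at 24 h, and the part of this in the results was not tested. Between 12439665 and 18727385 reads per labelled library were counted on genes.

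New RNA of most purine genes was lower from 6 h on. At 2 h none of the 9 was called lower in T>C reads, where 7.14% of the 10083 genes tested were. At 6 h 6 of the 9 were called lower, against a background of 17.1% of all genes, and at 24 h 8 of the 9, against 31.2%. The median log2 fold change of the 9 genes at these times was -0.03, -1.32 and -2.76, beside medians of 0.05, -0.27 and -0.69 over all genes tested. No gene had all of its treated libraries below all vehicle libraries at 2 h (14.6% of all genes had), since the groups overlapped for all 9. This separation was seen for 7 of the 9 genes at 6 h (28.2% of all genes) and for 9 of 9 at 24 h (45.8%). The count at 2 h was also 0 with DESeq2, and IMPDH1 was the 1 gene with an unadjusted p under 0.05, at a positive log2 fold change. The count at 6 h was 3 in place of 6 without the first dCBP-30 library of that time. With library sizes from the T>C reads, IMPDH1 and IMPDH2 lost their calls at 6 h, and GART and ATIC at 24 h.

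**Figure D1:**
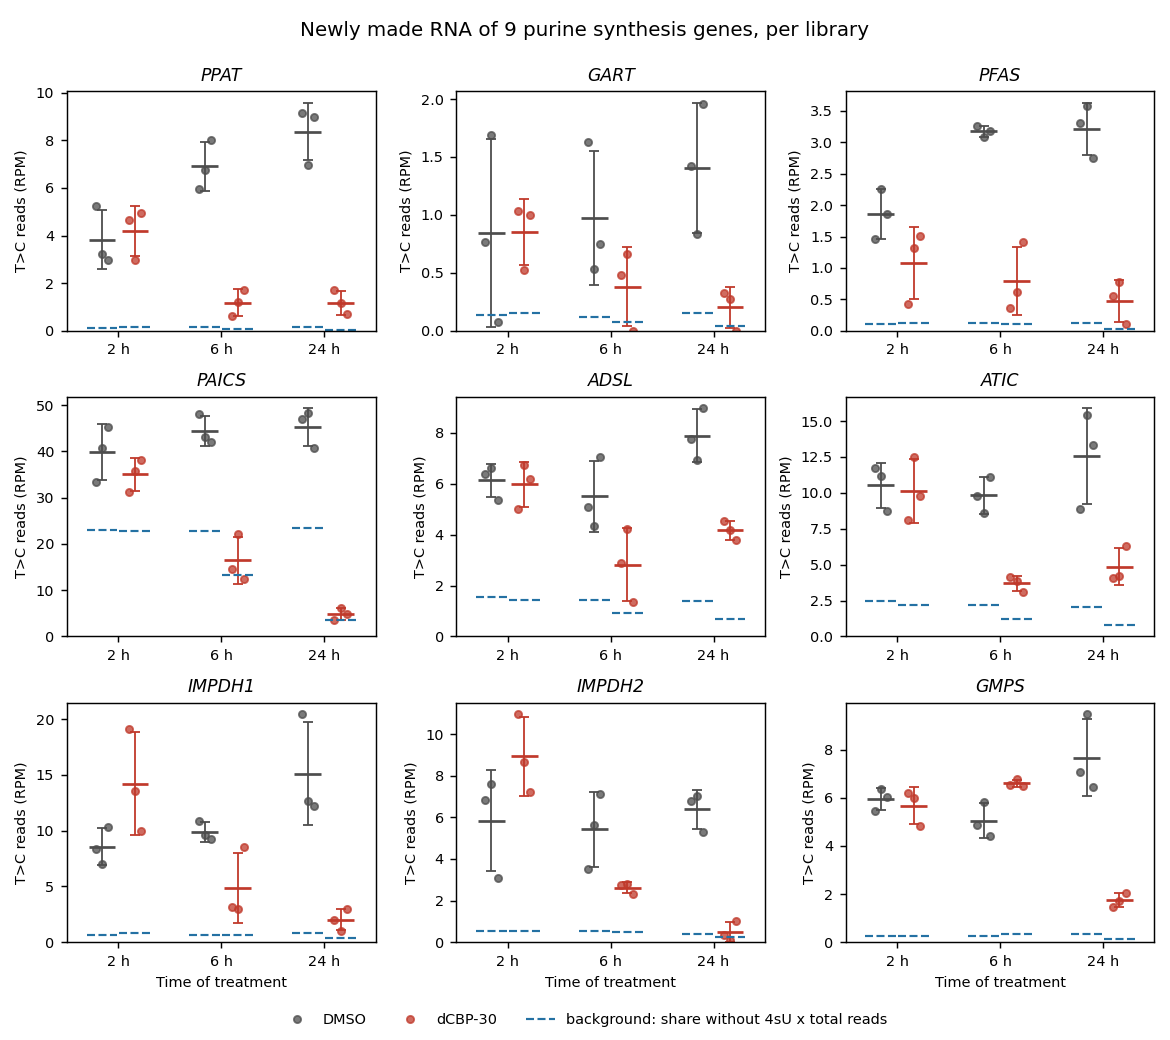
T>C reads of each gene in RPM (vertical axis, from 0) against the time of treatment, with 1 point per library, a bar for the mean of 3 libraries and whiskers of 1 SD. Dashed lines give the background, that is the gene's share of T>C reads without 4sU times its mean total reads in that group. At 24 h the dCBP-30 libraries lie below the DMSO libraries in all 9 panels, and those of PAICS and IMPDH2 lie close to the background line.

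PPAT, the amidophosphoribosyltransferase that takes the first committed step, had the largest drop at 6 h. Its T>C reads were 4.66, 2.97 and 4.95 RPM under dCBP-30 and 5.23, 3.24 and 2.99 RPM under DMSO at 2 h. At 6 h they were 0.599, 1.22 and 1.72 RPM against 5.94, 6.77 and 8.0 RPM. The 24 h libraries had 1.70, 1.15 and 0.697 RPM against 9.13, 6.98 and 8.99 RPM. The groups overlapped at 2 h and lay far apart at both later times. The log2 fold change was 0.13 ± 0.37 (SE, edgeR, adjusted p = 0.899) at 2 h, -2.54 ± 0.40 (adjusted p = 5.9e-07) at 6 h and -2.81 ± 0.40 (adjusted p = 3.21e-08) at 24 h. The change at 6 h was larger than that at 2 h by -2.68 ± 0.54 (interaction, adjusted p = 0.000392), while those at 24 and 6 h differed by -0.27 ± 0.55 (adjusted p = 0.832).

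Total PPAT reads were 14.0, 12.2 and 10.5 RPM under dCBP-30 and 27.2, 33.3 and 32.9 RPM under DMSO at 6 h, and 6.35, 7.03 and 6.28 RPM against 26.7, 31.7 and 36.3 RPM at 24 h. PPAT was thus 2.55-fold lower at 6 h (adjusted p = 1.81e-06) and 4.81-fold lower at 24 h (adjusted p = 2.28e-10). It was the only one of the 9 genes called lower in total reads at 6 h, where 8.67% of the 12267 genes tested were called lower. PPAT also had the highest share of T>C reads of the 9 genes under DMSO, 21.7% of its reads over the 9 vehicle libraries, which was above that of 82.6% of the 9390 genes with at least 500 reads there. Its share was 26.4% at 24 h under DMSO (95% Wilson interval 24.2% to 28.8%) and 18% (14.4% to 22.3%) under dCBP-30. These intervals cover counting error only.

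The promoter of PPAT is shown because it holds an E-box that it shares with PAICS. Both genes lie head to head on chromosome 4, and their RefSeq promoter windows (GRCh38.p14, 250 bases before to 50 after the start) have 236 bases in common. ATIC holds 2 E-boxes within its window. In the lines below, 5′ to 3′ on the strand of each gene, the capitals mark CACGTG, whose reverse strand reads the same.
PPAT, chr4:56435780-56435809, minus strand: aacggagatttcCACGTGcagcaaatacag
ATIC upstream, chr2:215312001-215312030, plus strand: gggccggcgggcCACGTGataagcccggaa
ATIC downstream, chr2:215312076-215312105, plus strand: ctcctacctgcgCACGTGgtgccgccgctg
The PPAT site starts at base -182 relative to its transcription start and at base 40 relative to that of PAICS. The ATIC sites start at bases -46 and 29. Of the 9 genes 7 matched the promoter table (all but ADSL and IMPDH2) with 11 windows in all. The motif was in 3 of these 11 windows, that of ATIC and those of PPAT and PAICS, and in 7.26% of all 35116 promoter windows. The windows of PPAT and PAICS hold the same site, so they do not count as separate matches. A match of letters is no evidence of binding. T>C reads of MYC itself were 1.56 ± 1.36 RPM under dCBP-30 and 122 ± 4.98 RPM under DMSO at 2 h (SD, n = 3). Whether MYC has a part in the changes of the 9 genes was not tested.

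GART, which carries out the glycinamide ribonucleotide synthetase, transformylase and aminoimidazole ribonucleotide synthetase steps in one protein, was measured poorly by its row with the most reads. That row is annotated as a nonsense-mediated decay transcript that spans 13 exon blocks (chr21:33503933-33528315, minus strand), and 98.1% as many multimapping reads as reads were listed for it, 5841 beside 5954. Only 35 and 36 of its reads were T>C reads at 2 h under DMSO and dCBP-30. At 6 h these were 42 and 20, and at 24 h 63 and 11. In RPM the treated libraries had 0.479, 0.666 and 0 at 6 h against 1.63, 0.536 and 0.746 in vehicle libraries. They had 0.328, 0.275 and 0 against 1.43, 0.835 and 1.96 at 24 h, where the groups no longer overlapped. Its log2 fold change in T>C reads was 0.01 ± 0.98 (2 h), -1.32 ± 1.00 (adjusted p = 0.389) at 6 h and -2.76 ± 1.05 (adjusted p = 0.0309) at 24 h, the last of these past both thresholds. That call was lost without TMM factors (adjusted p = 0.108), with library sizes from the T>C reads (0.137), with DESeq2 on their size factors (0.109) and after background subtraction (0.07). It was also lost when any of 4 single libraries at 24 h was left out. A protein-coding row of GART that ends early, at an end of a shorter transcript that holds only the synthetase part (chr21:33524009-33524764), had 5622 reads and 7 multimapping reads. Its T>C reads were 3.0 ± 0.369 RPM under dCBP-30 and 3.78 ± 1.39 RPM under DMSO at 2 h, 1.35 ± 0.588 against 3.59 ± 0.210 RPM at 6 h, and 0.362 ± 0.356 against 4.95 ± 1.13 RPM at 24 h (SD, n = 3). With this row the log2 fold change was -1.41 (adjusted p = 0.0261) at 6 h and -3.74 (adjusted p = 7.88e-08) at 24 h, so GART was called at both times. The 3′ end of the full-length protein-coding transcript held 27 reads in all. Total reads of the row with the most reads were 24.2 ± 1.30 RPM under DMSO and 27.4 ± 1.25 RPM under dCBP-30 at 2 h, and 27.1 ± 0.611 against 7.15 ± 1.15 RPM at 24 h, which was 3.78-fold lower (adjusted p = 6.48e-10).

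PFAS, which converts the formylglycinamide ribonucleotide to its amidine, had lower T>C reads at all 3 times by estimate, but was called from 6 h on. At 2 h they were 0.431, 1.32 and 1.5 RPM under dCBP-30 and 1.46, 2.26 and 1.87 RPM under DMSO. At 6 h the values were 0.359, 0.611 and 1.41 RPM against 3.26, 3.08 and 3.19 RPM. The 24 h libraries had 0.547, 0.769 and 0.107 RPM against 3.3, 3.58 and 2.76 RPM. The groups overlapped at 2 h (log2 fold change -0.75 ± 0.60, adjusted p = 0.525) and were separate later (-2.0 ± 0.60, adjusted p = 0.00939, and -2.74 ± 0.63, adjusted p = 0.000277). The drop at 24 h did not pass the test of a difference from 2 h (-1.99 ± 0.86, adjusted p = 0.0794). Total PFAS reads were 48.0 ± 2.03 RPM against 59.3 ± 5.29 RPM at 6 h (log2 fold change -0.31 ± 0.17, adjusted p = 0.158), and 12.7 ± 4.05 against 62.2 ± 2.02 RPM at 24 h, 4.87-fold lower (adjusted p = 8.65e-11).

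PAICS, which joins the carboxylase and the SAICAR synthetase in one enzyme, had the largest drop of the 9 genes in total reads. Total reads were 231, 204 and 253 RPM under dCBP-30 and 219, 228 and 254 RPM under DMSO at 2 h. At 24 h they were 31.3, 34.2 and 39.5 RPM against 231, 246 and 236 RPM. The groups overlapped at 2 h, and at 24 h no treated library came near a vehicle library: PAICS was 6.78-fold lower (log2 fold change -2.76 ± 0.12, adjusted p = 2.78e-16). At 6 h it was 1.71-fold lower (adjusted p = 2.81e-06), which is below the threshold of size.

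T>C reads of PAICS need their background beside them. In the 2 libraries without 4sU, 640 of its 6474 reads were T>C reads, 9.89% (95% Wilson interval 9.18% to 10.6%), with 640 conversions in them. The median over 8506 genes with at least 200 reads in these libraries was 0.592%, 76 genes were above PAICS, and the other 8 purine genes had between 0.210% and 1.42%. What makes these conversions was not tested. With 4sU the T>C reads of PAICS were 35.1 ± 3.54 RPM under dCBP-30 and 39.9 ± 6.02 RPM under DMSO at 2 h, 16.4 ± 5.14 against 44.5 ± 3.27 RPM at 6 h, and 4.85 ± 1.33 against 45.4 ± 4.10 RPM at 24 h (SD, n = 3). This was a log2 fold change of -0.18 ± 0.19 (adjusted p = 0.644) at 2 h, -1.43 ± 0.19 (adjusted p = 1.08e-08) at 6 h and -3.22 ± 0.21 (adjusted p = 7.89e-20) at 24 h. After the expected background was subtracted, 12.4 ± 3.70 and 16.7 ± 4.45 RPM were left at 2 h, 3.17 ± 4.18 and 21.7 ± 4.07 RPM at 6 h, and 1.38 ± 1.26 and 21.9 ± 3.90 RPM at 24 h. The log2 fold change was then -2.76 ± 0.82 (adjusted p = 0.0287) at 6 h and -3.98 ± 0.89 (adjusted p = 0.00321) at 24 h. The call held at both times, while the differences between 6 and 2 h (adjusted p = 0.297) and between 24 and 6 h (adjusted p = 0.619) were lost, which without subtraction were -1.25 ± 0.27 (adjusted p = 0.000729) and -1.79 ± 0.27 (adjusted p = 1.62e-06).

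**Figure D2:**
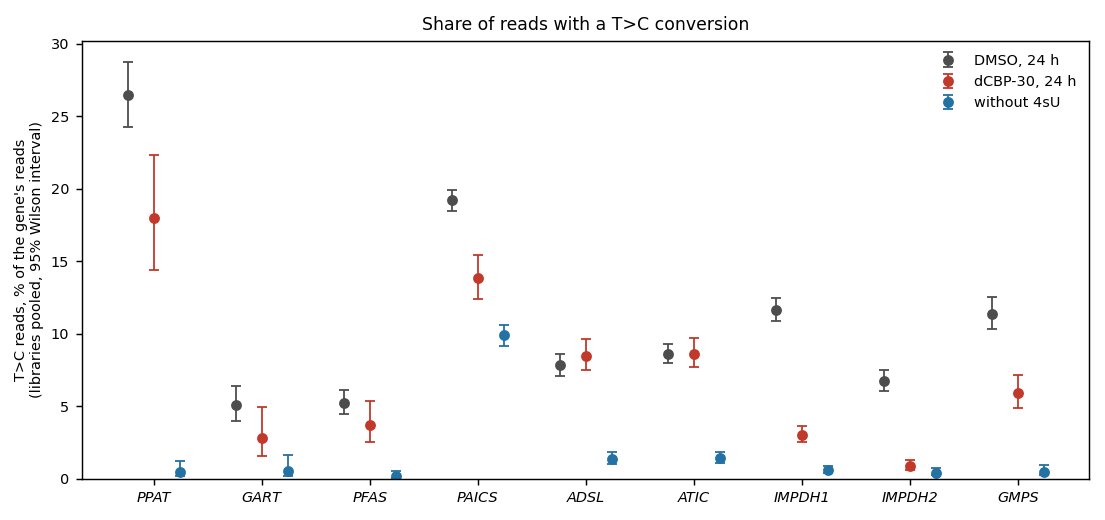
T>C reads as a percentage of all reads of each gene (vertical axis, from 0) with 95% Wilson intervals of the pooled libraries: 3 of DMSO at 24 h, 3 of dCBP-30 at 24 h and 2 without 4sU. PAICS stands out by a share of 9.89% without 4sU, ADSL and ATIC have nearly equal shares under both treatments, and IMPDH2 is at 6.75% under DMSO and 0.880% under dCBP-30.

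ADSL, the lyase used both before IMP and on the branch to AMP, had the smallest T>C change of the 9 genes at 24 h. Its T>C reads were 2.87, 4.22 and 1.35 RPM under dCBP-30 and 5.10, 4.36 and 7.05 RPM under DMSO at 6 h, and 4.54, 4.18 and 3.81 RPM against 7.77, 6.92 and 8.99 RPM at 24 h. Treated libraries were all below vehicle libraries at both times, narrowly at 6 h. The log2 fold change was -0.96 ± 0.34 (adjusted p = 0.0284) at 6 h and -0.92 ± 0.33 (adjusted p = 0.02) at 24 h, short of 2-fold, and -0.03 ± 0.33 at 2 h. Total ADSL reads were 49.1 ± 5.02 RPM against 100.2 ± 11.8 RPM at 24 h, 2.04-fold lower (adjusted p = 1.65e-06). The row used overlaps 856 bases of a readthrough gene on the same strand, and reads of both cannot be told apart. In the protein-coding row with the most reads, ADSL passed both thresholds in T>C reads at 24 h (log2 fold change -1.40, adjusted p = 0.000988). With DESeq2 on size factors of the T>C reads, its log2 fold change at 24 h was -0.16.

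ATIC, which adds the last carbon and closes the ring to give IMP, had fewer T>C reads after 6 h and later. T>C reads were 4.13, 3.83 and 3.13 RPM under dCBP-30 and 9.77, 8.58 and 11.1 RPM under DMSO at 6 h, and 4.05, 4.23 and 6.33 RPM against 8.88, 15.4 and 13.3 RPM at 24 h. The groups did not overlap at either time. Log2 fold changes were -0.05 ± 0.27 (2 h), -1.41 ± 0.28 (adjusted p = 5.63e-05) at 6 h and -1.36 ± 0.27 (adjusted p = 3.83e-05) at 24 h. The call at 24 h was lost without TMM factors (-0.84), with library sizes from the T>C reads (-0.73) and with DESeq2 on size factors of the T>C reads (-0.63). The change at 6 h differed from that at 2 h by -1.35 ± 0.39 (adjusted p = 0.0164), and that at 24 h from that at 6 h by 0.04 ± 0.38 (adjusted p = 0.969). Total reads were 87.9 ± 22.1 against 155 ± 4.38 RPM at 6 h (1.76-fold lower, adjusted p = 0.000225) and 56.5 ± 3.70 against 146 ± 33.0 RPM at 24 h (2.58-fold lower, adjusted p = 9.9e-08). By 24 h new and total reads of ATIC were lower by nearly the same factor (2.57 and 2.58), and T>C reads made up 8.60% ± 2.00 of its reads under dCBP-30 and 8.56% ± 0.446 under DMSO (SD, n = 3).

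IMPDH1 and IMPDH2 encode the IMP dehydrogenases, which commit IMP to GMP. Both had T>C estimates above DMSO at 2 h. IMPDH1 had 19.2, 13.5 and 9.95 RPM under dCBP-30 and 8.39, 7.05 and 10.3 RPM under DMSO at 2 h, and IMPDH2 10.9, 8.65 and 7.20 RPM against 6.85, 7.62 and 3.06 RPM. In both genes the lowest treated library lay below the highest vehicle library, and neither difference passed the test (0.72 ± 0.31, adjusted p = 0.141, and 0.61 ± 0.37, adjusted p = 0.354). With the protein-coding row of IMPDH2 its estimate was 0.11 (adjusted p = 0.945).

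At 6 h both had T>C estimates below DMSO. IMPDH1 had 3.11, 3.0 and 8.52 RPM of T>C reads against 10.9, 9.59 and 9.22 RPM, and IMPDH2 2.75, 2.78 and 2.33 RPM against 3.54, 5.63 and 7.12 RPM. Treated libraries were below vehicle libraries in both genes, although the third treated library of IMPDH1 lay just below. The log2 fold changes of -1.02 ± 0.32 (adjusted p = 0.0118) and -1.05 ± 0.38 (adjusted p = 0.0353) passed the thresholds by little. With library sizes from the T>C reads they were -0.73 (adjusted p = 0.082) and -0.74 (adjusted p = 0.167), and with the protein-coding row of IMPDH2 its adjusted p was 0.0549. After background subtraction that of IMPDH2 was 0.0743. The call of IMPDH1 was lost when any of 3 single libraries was left out, and that of IMPDH2 when any of 5 was.

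At 24 h both had far fewer T>C reads than under DMSO. IMPDH1 had 2.02, 1.04 and 2.95 RPM of T>C reads against 20.5, 12.7 and 12.2 RPM, which was 7.5-fold lower (log2 fold change -2.91 ± 0.34, adjusted p = 2.55e-10). IMPDH2 had 0.328, 0.110 and 1.02 RPM against 6.80, 7.04 and 5.29 RPM, which was 12.9-fold lower (-3.69 ± 0.45, adjusted p = 6.24e-10) and the largest drop among the 9 genes. The changes at 24 h exceeded those at 6 h in IMPDH1 (-1.88 ± 0.46, adjusted p = 0.00262) and IMPDH2 (-2.64 ± 0.59, adjusted p = 0.000882). The first of these was lost when the third dCBP-30 library at 6 h was left out (-1.21).

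Total reads of the pair were lower by less than 2-fold at 24 h. Total IMPDH1 reads were 65.4, 66.8 and 67.7 RPM under dCBP-30 and 156, 114 and 121 RPM under DMSO at 24 h, and total IMPDH2 reads 55.1, 56.3 and 55.7 RPM against 94.5, 105 and 84.7 RPM. Groups did not overlap, and the log2 fold changes were -0.97 ± 0.16 (adjusted p = 1.36e-05) and -0.77 ± 0.13 (adjusted p = 2.81e-05), both short of 2-fold. At 6 h the estimates were -0.06 ± 0.16 and -0.09 ± 0.13 (adjusted p = 0.773 and 0.634). Accordingly the share of T>C reads of IMPDH2 went from 6.72% ± 0.474 under DMSO to 0.874% ± 0.852 under dCBP-30 at 24 h, and that of IMPDH1 from 11.4% ± 1.56 to 3.01% ± 1.40 (SD, n = 3). Pooled, IMPDH2 had 27 T>C reads left under dCBP-30, 0.880% of its reads (95% Wilson interval 0.606% to 1.28%), and 0.423% (0.247% to 0.722%) without 4sU, so that its remaining T>C reads could not be set clearly apart from background at this depth. The difference between the fall in T>C reads and in total reads was not tested. The row of IMPDH2 spans 12 exon blocks (chr3:49024325-49028494) and overlaps 1398 bases of a readthrough gene on the same strand, and in the 58-base 3′ UTR of its coding transcripts total reads were called lower at 24 h (-1.32, adjusted p = 1.49e-05).

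GMPS, the GMP synthetase that follows IMP dehydrogenase, was the exception at 6 h. Its T>C reads were 6.53, 6.77 and 6.50 RPM under dCBP-30 and 4.88, 5.83 and 4.41 RPM under DMSO, so that every treated library lay above every vehicle library. The test was not passed (log2 fold change 0.39 ± 0.30, adjusted p = 0.407). Total reads at 6 h were 78.0, 62.3 and 77.4 RPM against 52.6, 55.6 and 53.1 RPM, again with every treated library higher (0.43 ± 0.12, adjusted p = 0.00691, short of 2-fold). The larger part of this difference in total reads lay in the first 18 bases of its row, with means of 51.7 against 37.3 RPM. Multimapping reads amounted to 98.2% of the reads there. In the rest of the row the means were 20.8 RPM under dCBP-30 and 16.5 RPM under DMSO, without a test.

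By 24 h GMPS was lower in both measures. T>C reads were 1.48, 1.70 and 2.04 RPM against 7.06, 9.48 and 6.45 RPM (4.39-fold lower, adjusted p = 1.79e-07), and total reads 31.1, 30.9 and 26.6 RPM against 70.7, 67.4 and 66.9 RPM (2.31-fold lower, adjusted p = 9.37e-09). The change between 6 and 24 h was -2.52 ± 0.44 (interaction, adjusted p = 2.28e-05), the second largest among the 9 genes after that of IMPDH2. Multimapping reads amounted to 65.4% of the reads of its row (chr3:155937693-155944020), and nearly all of them lay in the first 18 bases. In the rest of the row, where they amounted to 2.40% of 5831 reads, T>C reads were 4.08 ± 0.611 RPM under dCBP-30 and 2.37 ± 0.398 RPM under DMSO at 6 h and 1.27 ± 0.316 against 5.17 ± 1.90 RPM at 24 h (SD, n = 3), as a description without a test.

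**Figure D3:**
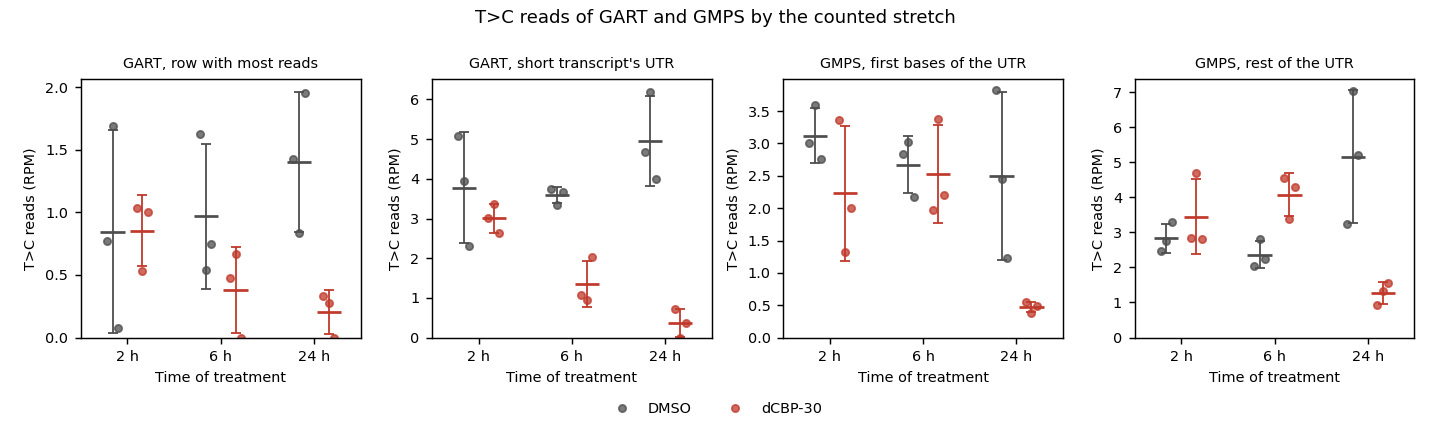
T>C reads in RPM (vertical axes, from 0) against the time of treatment for 2 stretches of GART and 2 of GMPS, with 1 point per library, a bar for the mean and whiskers of 1 SD (n = 3). At 24 h the short GART transcript is at 0.362 RPM under dCBP-30 and 4.95 RPM under DMSO. At 6 h GMPS is at 4.08 RPM under dCBP-30 and 2.37 RPM under DMSO outside its first bases, and at 2.52 and 2.67 RPM within them.

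In total reads none of the 9 genes was called lower at 2 h (1.25% of all genes; also 0 with DESeq2, and IMPDH1 alone had an unadjusted p under 0.05), 1 at 6 h and 7 at 24 h, beside 16.1% of all genes. All treated libraries were below all vehicle libraries in total reads for 0 genes at 2 h (10.1% of all genes), 6 at 6 h (24.3%) and 9 at 24 h (33.0%). At 2 h the log2 fold changes in total reads ran from -0.17 for ATIC to 0.34 for IMPDH1. The medians in total reads were -0.01, -0.62 and -1.37 in order of time, with medians over all genes of 0.00, 0.02 and 0.05. In the rows used, PAICS, PFAS and PPAT had the largest drops in total reads at 24 h, and IMPDH1 and IMPDH2 the smallest. With protein-coding rows IMPDH2 was at -1.32, beyond GMPS (-1.21) and ADSL (-1.13). Without TMM factors, which lay between 1.29 and 1.32 in the dCBP-30 libraries and between 0.893 and 0.935 in the DMSO libraries at 24 h, the median over all genes moved from 0.05 to 0.57 and 4 of the 9 were called lower: GART, PAICS, PFAS and PPAT.

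**Figure D4:**
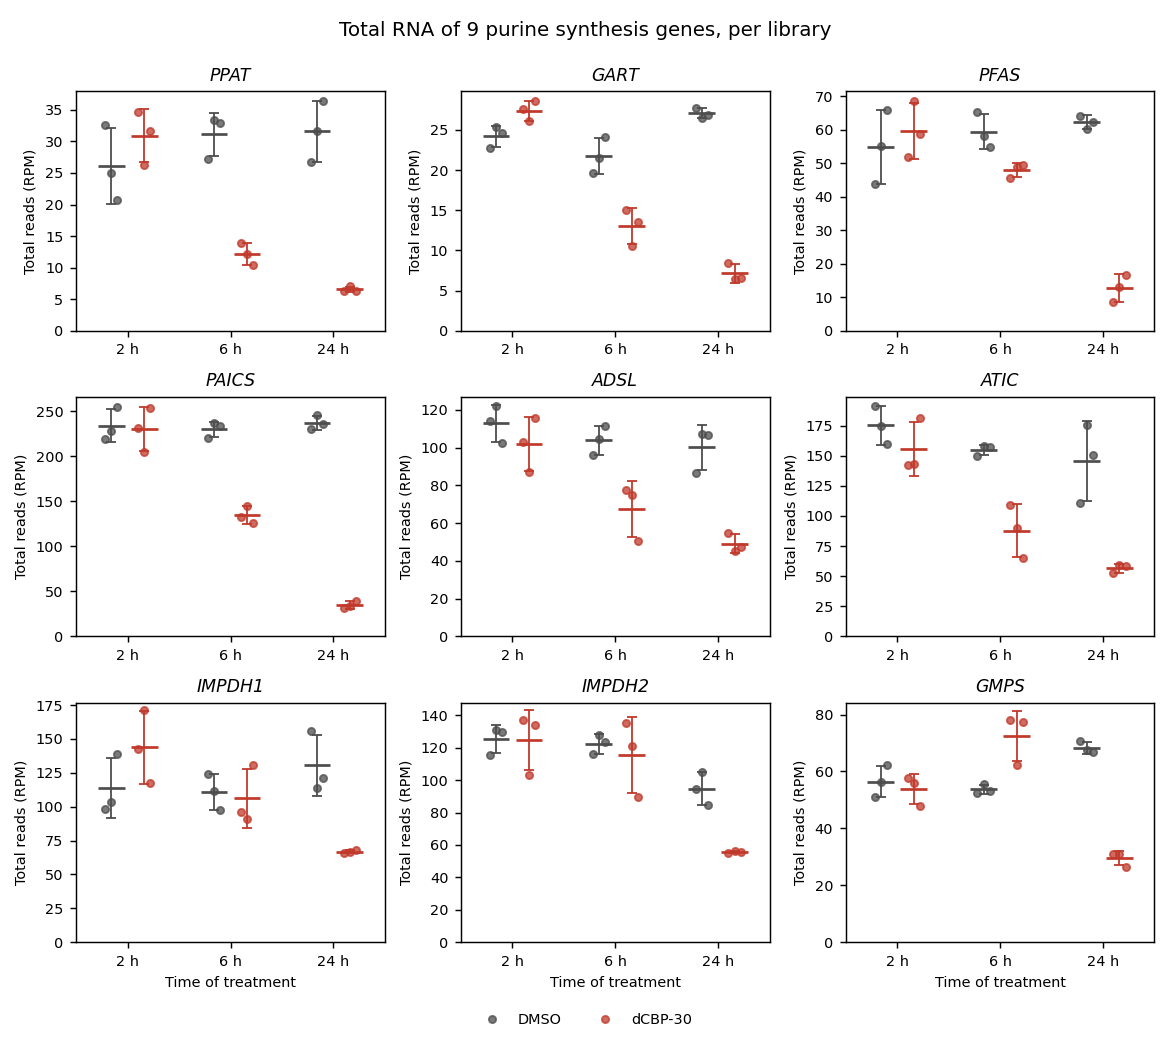
Total reads of each gene in RPM (vertical axis, from 0) against the time of treatment, with 1 point per library, a bar for the mean of 3 libraries and whiskers of 1 SD. At 24 h PAICS is at 237 RPM under DMSO and 35 RPM under dCBP-30, IMPDH1 at 130 and 66.6 RPM, and IMPDH2 at 94.7 and 55.7 RPM. GMPS is higher under dCBP-30 at 6 h, mostly in the first 18 bases of its row.

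Within single genes the T>C change was compared between times. The change at 24 h differed from that at 2 h in 6 of the 9 genes (background 23.0% of all genes in the same direction): PPAT, PAICS, ATIC, IMPDH1, IMPDH2 and GMPS. Between 2 and 6 h it differed in 5 (background 7.35%), PPAT, PAICS, ATIC, IMPDH1 and IMPDH2, and between 6 and 24 h in 4 (background 9.13%), PAICS, IMPDH1, IMPDH2 and GMPS. These differences share libraries, and genes were not tested against each other. The 5 genes that differed between 2 and 6 h became 3 without TMM factors, with library sizes from the T>C reads, after background subtraction, with summed transcripts, or without the second dCBP-30 library at 2 h, the third DMSO library at 2 h or the third DMSO library at 6 h. They became 2 with DESeq2 on size factors of the T>C reads. The difference of IMPDH2 (interaction, adjusted p = 0.0378) was lost after background subtraction (adjusted p = 0.0972) and when any of 8 single libraries was left out. That of ATIC was lost when any of 3 single libraries was left out. The differences of PAICS between 2 and 6 h and between 6 and 24 h were lost after background subtraction.

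**Figure D5:**
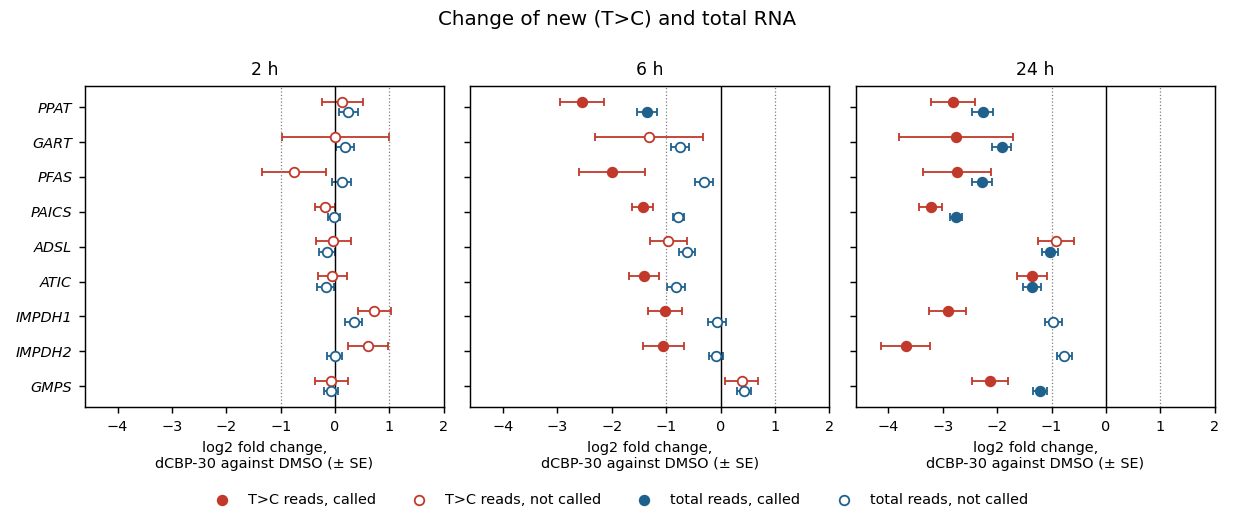
Log2 fold change of dCBP-30 against DMSO (horizontal axis) with its SE for T>C reads and total reads of the 9 genes at 2, 6 and 24 h. Filled points passed both thresholds, dotted lines mark 2-fold, and the distance between the points of a gene is widest for IMPDH2 at 24 h, -3.69 against -0.77 in the row used. In its protein-coding row total reads were at -1.32.

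Vehicle libraries were made for each time. None of the 9 genes differed between 24 and 2 h at both thresholds in T>C reads, where 2.52% of all genes were called higher. All 9 estimates were still above 0, from 0.13 to 1.13, with a median of 0.37 beside 0.49 over all genes. T>C reads made up 5.99% to 6.13% of the reads of DMSO libraries at 2 h and 8.15% to 8.62% at 24 h. In dCBP-30 libraries at 24 h they made up 5.92% to 6.86%. Unadjusted p-values were under 0.05 for PPAT (log2 fold change 1.13 ± 0.37, adjusted p = 0.054) and IMPDH1 (0.82 ± 0.31, adjusted p = 0.0964). DESeq2 with size factors of the total reads called 1 gene, PPAT, and with size factors of the T>C reads 0. T>C reads at 24 h also carried fewer conversions under dCBP-30, 1.47 for each T>C read over all genes against 2.48 under DMSO, and 1.34 against 3.40 for PPAT. The part of this difference in the changes at 24 h was not tested.

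Genes that supply or surround the path were counted in the same way, and of all genes tested in T>C reads 17.1% were called lower at 6 h and 31.2% at 24 h. Of 4 genes of PRPP synthetase subunits and their associated proteins 1 was called lower in T>C reads at 24 h (median log2 fold change -0.85), the catalytic subunit PRPS2 (-2.66 ± 0.62, adjusted p = 0.000348). Serine synthesis and the folate cycle provide the glycine and the one-carbon units of the ring. Of their 11 tested genes 3 were called lower at 6 h and 8 at 24 h (median -2.0), led by PHGDH, which starts serine synthesis (-2.88 ± 0.69, adjusted p = 0.000505), MTHFD1L (-2.75 ± 0.77, adjusted p = 0.00294) and MTHFD1 (-2.56 ± 0.48, adjusted p = 1.53e-05), both enzymes of formyl-tetrahydrofolate.

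Salvage and interconversion held 13 tested genes, of which 5 were called lower at 6 h (all genes 17.1%) and 7 at 24 h (all genes 31.2%, median of the list -2.05). ADA, adenosine deaminase, was lower already at 2 h, 0.872 ± 0.482 against 9.41 ± 2.37 RPM of T>C reads (log2 fold change -3.43 ± 0.42, adjusted p = 1.4e-09), and -3.86 ± 0.41 at 24 h. APRT, which salvages adenine, was at -3.79 ± 0.61 (adjusted p = 5.85e-07) at 24 h. AMPD1, an AMP deaminase, had 0 T>C reads under dCBP-30 and 27 under DMSO at 24 h, at least 10.8-fold lower when 3 counts over the group are taken as the floor. Among 13 nucleotide kinases and ribonucleotide reductase subunits 7 were called lower at 24 h (median -1.55), with RRM2 at -3.93 ± 0.15 (adjusted p = 6.24e-30), NME1 at -3.76 ± 0.39 and RRM1 at -2.62 ± 0.20. Of 6 genes of nucleotide breakdown 2 were called lower at 24 h (median -0.98), a share near the 31.2% of all genes, NT5C (-1.58 ± 0.47) and SAMHD1 (-1.21 ± 0.37), and 0 without TMM factors or with library sizes from the T>C reads. The medians stand beside -0.69 over all genes.

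The genes whose 3 T>C log2 fold changes came closest to the medians of the 9, among 3681 other genes with at least 5 RPM under DMSO, were SCD, RPL35, DNAJB9, FBL and TTLL12. Their Euclidean distances, over 3 time points, ran from 0.103 for SCD to 0.249 for TTLL12. SCD, the stearoyl-CoA desaturase, stood at -0.13, -1.29 and -2.73, beside -0.03, -1.32 and -2.76 for the medians of the purine genes.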

How the data were processed

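MM1.S cells were profiled by SLAM-seq in 18 libraries with 4sU and 2 without. The authors trimmed the 3′-end reads with TrimGalore, mapped and counted them with Slamdunk on 3′ UTRs of hg38 and deposited raw counts of reads, T>C reads, conversions, covered T positions and multimapping reads per transcript, with replicates kept apart. The methods state that multimapping reads were removed, and whether the listed ones are among the reads, and whether counting used the strand, is not given in the sources used here.

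Of 97466 transcript rows, 89088 (91.4%) matched GENCODE 44 (GRCh38) by identifier, and the unmatched rows held at most 0.199% of a library's reads. Transcripts of a gene repeat reads, so the row with the most reads stood for the gene. Of the 9 genes 5 were thus represented by a row annotated as nonsense-mediated decay, which also covers coding exons. Tests used R 4.3.3, edgeR 4.0.16 (quasi-likelihood, robust) and DESeq2 1.42.0 as an alternative. Tables and figures used Python 3.11.15. Each kind of count was fitted with a mean for every group of the 18 libraries with 4sU, scaled by total reads times their TMM factors, a minimum count of 10 (filterByExpr) and Benjamini-Hochberg adjustment over all genes. Calls needed a change beyond 2-fold at an adjusted p under 0.05, and interactions the latter alone. With 3 libraries against 3, an exact permutation test cannot go below p = 0.1, so none was used. Background was subtracted as the pooled share of T>C reads without 4sU times a gene's reads. Libraries of a group were no copies of each other (chi-square per degree of freedom between 8.35 and 47.5). The fit was tested on simulated data.

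The 9 genes and all gene lists were chosen with earlier results of these data known. The text names all 9, MYC, up to 3 called genes per list by size of the T>C change at 24 h, and the 5 genes nearest to the medians. Alternatives were other scalings and size factors, each time alone, other filters and thresholds, background subtraction, a replicate block, summed transcripts, leaving out each library, and, chosen after seeing the data, protein-coding rows.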

Additional observations from a re-analysis of the deposited data

Results flagged for a closer look

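Changes that differed between time points by the test of the interaction (edgeR, T>C reads, adjusted p under 0.05) are listed as log2 differences. Between 2 and 6 h the change became more negative in PPAT (-2.68), IMPDH1 (-1.75), IMPDH2 (-1.66), ATIC (-1.35) and PAICS (-1.25). Between 2 and 24 h it did so in IMPDH2 (-4.29), IMPDH1 (-3.63), PAICS (-3.04), PPAT (-2.95), GMPS (-2.06) and ATIC (-1.31). Between 6 and 24 h it did so in IMPDH2 (-2.64), GMPS (-2.52), IMPDH1 (-1.88) and PAICS (-1.79). The difference of IMPDH2 between 2 and 6 h (interaction, adjusted p = 0.0378) was lost when any of 8 single libraries was left out, and that of ATIC when any of 3 was. Those of PAICS between 2 and 6 h (adjusted p = 0.297) and between 6 and 24 h (adjusted p = 0.619) were lost after background subtraction. That of IMPDH1 between 6 and 24 h was lost without the third dCBP-30 library at 6 h.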

How the results depend on the processing

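The counts of 0 genes at 2 h, in T>C and total reads, were the same under every alternative run. At 24 h the count in T>C reads lay between 7 and 9 when single libraries were left out, and at 6 h between 3 and 6. Calls also depended on the scaling. With DESeq2 on size factors of T>C reads, IMPDH1 (-0.67) and IMPDH2 (-0.68) fell short of 2-fold at 6 h. At 24 h ATIC (-0.63) did so, GART lost its call, and ADSL was at -0.16. For changes that differed, leaving out single libraries gave 3 to 5 genes between 2 and 6 h, 6 to 7 between 2 and 24 h and 3 to 4 between 6 and 24 h, for the drift under DMSO 0 to 1, and in total reads 1 to 1 gene at 6 h and 6 to 7 at 24 h. The genes that differed between 2 and 6 h were 3 in place of 5 without TMM factors, when scaled by T>C reads, after background subtraction and with summed transcripts, and 2 with DESeq2 on size factors of T>C reads. They were also 3 without the second dCBP-30 or the third DMSO library at 2 h or the third DMSO library at 6 h. The drift under DMSO gained 1 gene, PPAT, at an adjusted p under 0.1, without TMM factors, with DESeq2 on size factors of total reads, at a mean of at least 20 reads, and without the first or the third dCBP-30 library at 6 h or any dCBP-30 library at 24 h. In total reads at 6 h, summed transcripts and protein-coding rows called 2 genes in place of 1, and at 24 h the count was 4 in place of 7 without TMM factors.

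In T>C reads at 24 h, GART and ATIC lost their calls without TMM factors and when scaled by T>C reads (ATIC -0.84 and -0.73), and GART also after background subtraction (adjusted p = 0.07). The call of GART was lost as well when any of 4 single libraries at 24 h was left out. Signs turned in values near 0. In T>C reads at 2 h, GART was at -0.0725 after background subtraction, -0.35 with summed transcripts and -0.33 in protein-coding rows. ATIC was at 0.0542 without TMM factors, 0.0729 with summed transcripts and 0.17 in protein-coding rows, ADSL at 0.0736 without TMM factors and 0.002 after background subtraction, and GMPS at 0.0337 without TMM factors. PPAT between 6 and 24 h was at 0.0828 when scaled by T>C reads and 0.12 with DESeq2 on their size factors. Total reads at 6 h without TMM factors were at 0.0108 for PFAS, 0.25 for IMPDH1 and 0.23 for IMPDH2. With single libraries left out, values that turned ranged at 2 h from -0.0154 to 0.42 for PPAT, -0.53 to 1.01 for GART, -0.23 to 0.0787 for ATIC, -0.13 to 0.0759 for ADSL and -0.14 to 0.0362 for GMPS, between 6 and 24 h from -0.62 to 0.0903 for PPAT and -0.19 to 0.22 for ATIC, and in total reads at 6 h from -0.24 to 0.0345 for IMPDH1 and -0.22 to 0.0658 for IMPDH2. The cause was not tested.

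Replicate numbers did not pair the libraries: deviations of same-numbered libraries correlated between -0.07 and 0.02. With the replicate block, the counts called lower in T>C reads, 6 after 6 h and 8 after 24 h, were those without it. All counts of the 9 genes were equal under the block, while the 1 PRPP supply gene called at 6 h, PRPS1, was lost. A mean of at least 20 reads removed GART from the T>C reads. No paired or between-time value exists for each time point fitted alone. Scaling by T>C reads moved the median of all genes at 24 h from -0.69 to -0.04, and the genes called lower and higher from 3147 and 220 to 1526 and 754. In total reads, leaving out TMM factors moved them from 1972 and 1839 to 1064 and 3661. Few T>C reads limit GART and, after treatment, PFAS and IMPDH2.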
